A study of Mus musculus with 18 samples.

Results

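The genes described here encode 7 mouse transient receptor potential (TRP) channels studied in pain and inflammation, namely Trpv1, Trpv2, Trpv4, Trpa1, Trpm2, Trpm3 and Trpm8. They were named from the channel family and make up 7 of the 55359 genes counted in each tissue. The channels and the gene lists used below were chosen with earlier results of these data known. Counts of called genes set against the share of all genes are therefore descriptive only. Bulk RNA sequencing was done on C57BL/6 mice, 10 weeks old, in 3 tissues: ankle joint, spinal cord and DRG (dorsal root ganglia, where the cell bodies of sensory neurons lie). The tested mice received 100 µl of monosodium urate (MSU), the crystal that forms in gout, in the right ankle, and the control mice received phosphate-buffered saline (PBS) there. All tissues were taken 8 h later, and each tissue gave 3 MSU and 3 PBS libraries, 18 in all. The sample titles call the controls WT, a word that the MSU titles do not carry. Other labels call the controls untreated, whereas the treatment protocol and the column names call them PBS. The labels do not say which side or level of ganglia and cord was taken, nor whether a library is 1 mouse or a pool, so p-values measure the spread between libraries.

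TRP channels are cation channels that open to temperature, chemical ligands, stretch or lipid and nucleotide messengers, and the calcium and sodium they admit depolarise sensory endings. TRPV1 opens to heat, acid and capsaicin, TRPA1 to electrophilic irritants, TRPM8 to cold and menthol, and TRPM3 to heat and pregnenolone sulphate. TRPV4 responds to osmotic and mechanical stress and is known from skin and cartilage, TRPV2 is expressed in macrophages as well as in neurons, and TRPM2 opens to ADP-ribose made during oxidative stress and is well known from phagocytes. Inflammatory mediators such as bradykinin and prostaglandins sensitise TRPV1 and TRPA1 on nociceptors through receptor-coupled kinases.

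The annotation places Trpv1 (ENSMUSG00000005952) and Trpv2 (ENSMUSG00000018507) on chromosome 11, Trpv4 (ENSMUSG00000014158) on chromosome 5 and Trpm2 (ENSMUSG00000009292) on chromosome 10. It places Trpm3 (ENSMUSG00000052387) on chromosome 19, and Trpa1 (ENSMUSG00000032769) and Trpm8 (ENSMUSG00000036251) on chromosome 1. Exons of Trpv1, Trpv2, Trpv4 and Trpa1 shared no base with another gene, and 0.73% of the Trpm2 exon bases did. Antisense or opposite-strand RNA genes covered 2.57% of Trpm3 exon bases and 8.2% of Trpm8 exon bases, and the strand setting of the counting is not given in the sources used here.

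Library totals ran between 11632950 and 38812815 counted reads. Each of 3 marker sums was highest in its own tissue. The summed level of 12 sensory neuron markers was 7594 to 11748 CPM (reads scaled to a common library size) in DRG libraries, 1304 to 1451 CPM in cord libraries and 12.2 to 17.2 CPM in ankle libraries. That sum is not specific in the cord, where its members Scn10a and Avil reached at most 8.43 and 8.52 CPM. The 8 spinal cord neuron markers summed to 1161 to 1533 CPM in the cord, 240 to 304 CPM in the DRG and 2.20 to 6.83 CPM in the ankle. The 7 chondrocyte markers summed to 818 to 1625 CPM in the ankle, 31.6 to 76.1 CPM in the DRG and 76.3 to 92.7 CPM in the cord. A gene was called where the edgeR test gave an adjusted p below 0.05 over all genes tested in that tissue. Of the ankle calls, 49.9% were higher after MSU, and 40.6% under upper quartile scaling. When all 18 libraries were fitted together, the share of calls that were higher was 39.0% in the ankle, against 49.9% in the ankle fit alone. In the DRG it was 38.0% against 47.2%, and in the cord 70.0% against 57.9%.

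Each tissue had its own order of channels per length. Levels per length, in RPKM (CPM per kilobase of exon), were compared in the PBS libraries, where the DRG held mostly nociceptor channels, the ankle Trpv4 and the cord Trpm3 and Trpm2. The length was the union of all annotated exons: 24.4 kb for Trpm3, 12.5 kb for Trpm2 and 3.68 to 4.73 kb for the others. The order depends on that length. By reads, Trpm3 stood above Trpm8 in PBS ganglia (4850 against 3664) and above Trpv1 in PBS ankles (820 against 144). In PBS ganglia the order was Trpv1 at 40.8 ± 3.52 RPKM, Trpv2 at 21.0 ± 2.06 RPKM, Trpa1 at 18.5 ± 3.09 RPKM, Trpm8 at 11.3 ± 1.32 RPKM, Trpm2 at 3.93 ± 0.164 RPKM, Trpm3 at 2.94 ± 0.175 RPKM and Trpv4 at 0.894 ± 0.159 RPKM (SD, n = 3). Libraries of Trpv2 and Trpa1 overlapped there, and those of the other neighbours did not. In PBS ankles Trpv4 stood at 12.6 ± 0.819 RPKM, Trpv2 at 3.57 ± 0.229 RPKM, Trpm2 at 0.761 ± 0.0834 RPKM, Trpv1 at 0.471 ± 0.0512 RPKM, Trpm3 at 0.373 ± 0.0606 RPKM and Trpa1 at 0.0717 ± 0.0894 RPKM. Trpv1 overlapped with Trpm3 in the ankle, and Trpa1 overlapped with Trpm8, which had 3 reads in 1 PBS library and 0 in the other two. In PBS cords Trpm3 stood at 9.56 ± 0.575 RPKM, Trpm2 at 7.33 ± 0.537 RPKM, Trpv2 at 3.70 ± 0.676 RPKM, Trpv4 at 0.696 ± 0.0798 RPKM, Trpm8 at 0.386 ± 0.0334 RPKM, Trpa1 at 0.248 ± 0.167 RPKM and Trpv1 at 0.0800 ± 0.0804 RPKM. Trpa1 overlapped with both Trpm8 and Trpv1 in the cord.

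**Figure D1:**
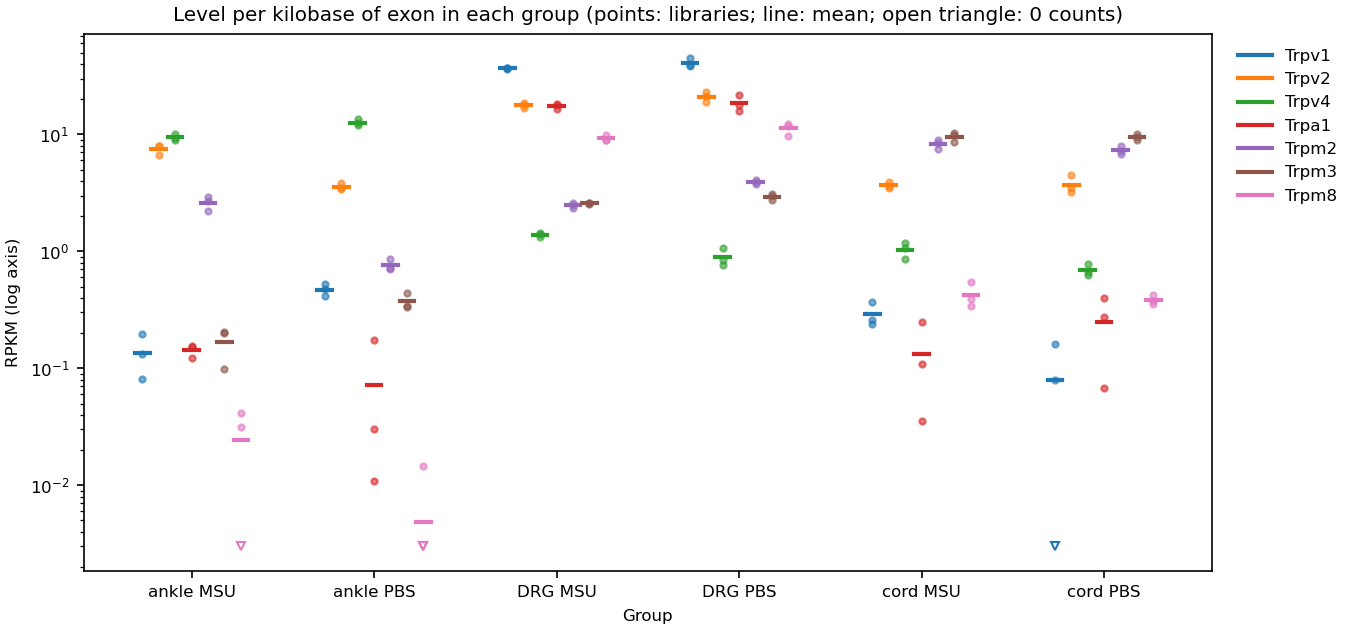
RPKM of the 7 channels (vertical log axis) in the 6 groups (horizontal axis), with 1 point per library, a line at the group mean and open triangles for libraries with 0 reads. Trpv1 is the highest channel in both DRG groups (40.8 RPKM in PBS), Trpv4 in both ankle groups (12.6 RPKM in PBS) and Trpm3 in both cord groups (9.56 RPKM in PBS).

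Between PBS ganglia and PBS cord, 6 of 7 channels differed, 4 higher and 2 lower in the ganglia, against 67.5% of all genes called, 33.0% higher and 34.6% lower. Trpv1 was 478-fold higher in the ganglia (adjusted p = 1.56e-09), Trpa1 78.1-fold (adjusted p = 1.15e-05), Trpm8 27.9-fold (adjusted p = 3.35e-11) and Trpv2 5.42-fold (adjusted p = 1.11e-08). Trpm2 and Trpm3 were lower in the ganglia, with log2 differences of -0.97 (SE 0.08) and -1.77 (SE 0.07). Trpv4 had a log2 difference of 0.29 (SE 0.23, adjusted p = 0.276).

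Between PBS ankle and PBS ganglia all 7 channels differed, while 80.9% of all genes were called, 42.0% higher and 38.9% lower in the ankle. Trpv4 was 14.2-fold higher in the ankle (adjusted p = 3.10e-08), and the other 6 channels were lower there. Reads of Trpm8 numbered 3 over the ankle PBS libraries and 3664 over the DRG PBS libraries, so its scaled ratio, ganglia over ankle, was 1231 with a 95% counting interval of 421 to 5970. Between PBS ankle and PBS cord 5 channels differed, against 80.2% of all genes, 41.6% higher and 38.6% lower in the ankle. Trpv4 was 18.3-fold higher in the ankle and Trpv1 5.90-fold higher (adjusted p = 0.00276), while Trpm2, Trpm3 and Trpm8 were lower. Trpv2 (log2 difference -0.02, SE 0.15) and Trpa1 (-1.71, SE 0.97) were not called in that contrast. Trpa1 rested on 24 ankle reads, 20 of them in PBS library 2, and without that library its difference was -3.73 (adjusted p = 0.00433).

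The promoters of Trpm8, Trpm2 and Trpv4 are shown because Trpm8 was nearly absent from the ankle, while Trpm2 and Trpv4 changed in opposite directions in ankle and ganglia after MSU, as described below. RefSeq (GRCm38.p6) supplied 9 promoters for 6 of the channels, and the 250 bases before the annotated start are printed 5′ to 3′ on the gene's own strand, which is plus for Trpm8 and minus for Trpm2 and Trpv4.
Trpm8 promoter, chr1:88306485-88306734: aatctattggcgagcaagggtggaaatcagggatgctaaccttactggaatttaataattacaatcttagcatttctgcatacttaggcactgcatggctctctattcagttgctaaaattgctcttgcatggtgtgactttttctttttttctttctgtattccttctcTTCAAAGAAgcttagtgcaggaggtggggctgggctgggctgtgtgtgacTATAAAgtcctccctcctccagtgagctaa
Trpm2 promoter, chr10:77969873-77970122: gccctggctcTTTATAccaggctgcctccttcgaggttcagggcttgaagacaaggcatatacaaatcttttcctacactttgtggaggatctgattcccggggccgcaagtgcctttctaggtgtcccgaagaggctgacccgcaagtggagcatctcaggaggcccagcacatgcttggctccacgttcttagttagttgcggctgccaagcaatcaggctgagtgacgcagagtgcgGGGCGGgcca
Trpv4 promoter, chr5:114658422-114658671: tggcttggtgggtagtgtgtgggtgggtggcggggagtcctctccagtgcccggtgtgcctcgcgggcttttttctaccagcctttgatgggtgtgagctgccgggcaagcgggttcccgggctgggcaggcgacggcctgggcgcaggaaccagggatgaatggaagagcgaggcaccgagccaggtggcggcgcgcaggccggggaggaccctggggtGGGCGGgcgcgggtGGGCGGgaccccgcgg
Capitals mark matches, on either strand, to the TATA box TATAAA, the GC box GGGCGG and the STAT site TTCNNNGAA. The AP-1 site TGANTCA and the NF-kB consensus were searched too and had no match in these 3 sequences, and E-box matches (CANNTG) are left in lower case. No matches of different motifs overlapped. In Trpm8 a TATA box spans bases -30 to -25 from the start and a STAT match spans bases -80 to -72. TATAAA occurs in 12.4% of the 32851 mouse promoters of this table, and the STAT letters occur in 7.02%. These shares count a match anywhere in the 250 bases and on either strand, so they are not shares for a given position. The TATA letters in Trpm2 lie far upstream at -240 to -235 and on the opposite strand. Trpv4 holds a pair of GC boxes, at -30 to -25 and -16 to -11, within a window of 72.0% G and C, against a median of 52.4% over all promoters. Counted in the same way, GC boxes occur in 32.7% of promoters, E-boxes in 66.2%, AP-1 sites in 6.75% and the NF-kB consensus in 7.25%. Among the other promoters, the 1 of Trpv1 matched none of the 6 motifs, and the NF-kB consensus matched once, in 1 of 3 Trpv2 promoters. These matches describe letters only.

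In the injected ankle, Trpm2 and Trpv2 rose, and Trpv1, Trpm3 and Trpv4 fell. Passing the count filter were 6 of the 7 channels, and 5 were called, 2 higher and 3 lower, where 43.3% of all ankle genes were called, 21.6% higher and 21.7% lower. Trpm2 was at 31.0, 41.5 and 38.9 CPM in MSU ankles, against 11.2, 9.30 and 9.63 CPM in PBS ankles. Every MSU library lay above every PBS library, and 55.9% of all ankle genes had groups that did not overlap. The fold was 3.67 (log2 fold change 1.88, SE 0.15, adjusted p = 3.32e-05). Trpv2 was at 33.5, 41.2 and 41.3 CPM in MSU ankles, against 18.1, 16.3 and 16.6 CPM in PBS ankles, again with no overlap. Its fold was 2.27 (log2 fold change 1.18, SE 0.12, adjusted p = 0.000125).

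Trpv1, the capsaicin receptor, had few reads in the ankle: 8, 11 and 6 in MSU libraries, against 67, 47 and 30 in PBS libraries. Scaled to depth, these were 0.332, 0.830 and 0.564 CPM in MSU ankles, against 1.62, 1.85 and 2.06 CPM in PBS ankles. The groups did not overlap, and the log2 fold change was -1.72 (SE 0.42, adjusted p = 0.00929). Trpm3 was at 5.61, 2.79 and 5.73 CPM in MSU ankles, against 11.4, 8.60 and 9.01 CPM in PBS ankles. All 3 MSU values lay below the PBS values, with a log2 fold change of -1.03 (SE 0.28, adjusted p = 0.0148). Without PBS library 1 the Trpm3 change was -0.90 and missed the threshold (adjusted p = 0.0545).

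Trpv4, the most abundant of the 7 per length in this tissue, was at 42.1, 42.4 and 47.7 CPM in MSU ankles, against 51.2, 53.5 and 59.3 CPM in PBS ankles. The groups did not overlap, but the change was small, with a log2 fold change of -0.31 (SE 0.10, adjusted p = 0.0365). This call was lost with DESeq2 (adjusted p = 0.0527) and without PBS library 2 or 3 or MSU library 1 or 2, where the adjusted p ran between 0.0740 and 0.116. Under upper quartile scaling, which moved the ankle median of all genes by -0.10, the Trpv4 value was -0.41.

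The irritant receptor Trpa1 had 14, 10 and 8 reads in MSU ankles, against 2, 20 and 2 in PBS ankles. PBS library 2 alone lay above the MSU libraries in CPM, and the log2 fold change of 1.09 (SE 0.84) was not called (adjusted p = 0.323). The cold receptor Trpm8 did not pass the filter: it had 4, 3 and 0 reads in MSU ankles, against 3, 0 and 0 in PBS ankles. Its scaled ratio of 3.53 had a 95% counting interval of 0.806 to 21.2, so no difference was detectable at this depth. Counting intervals here cover counting error only.

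**Figure D2:**
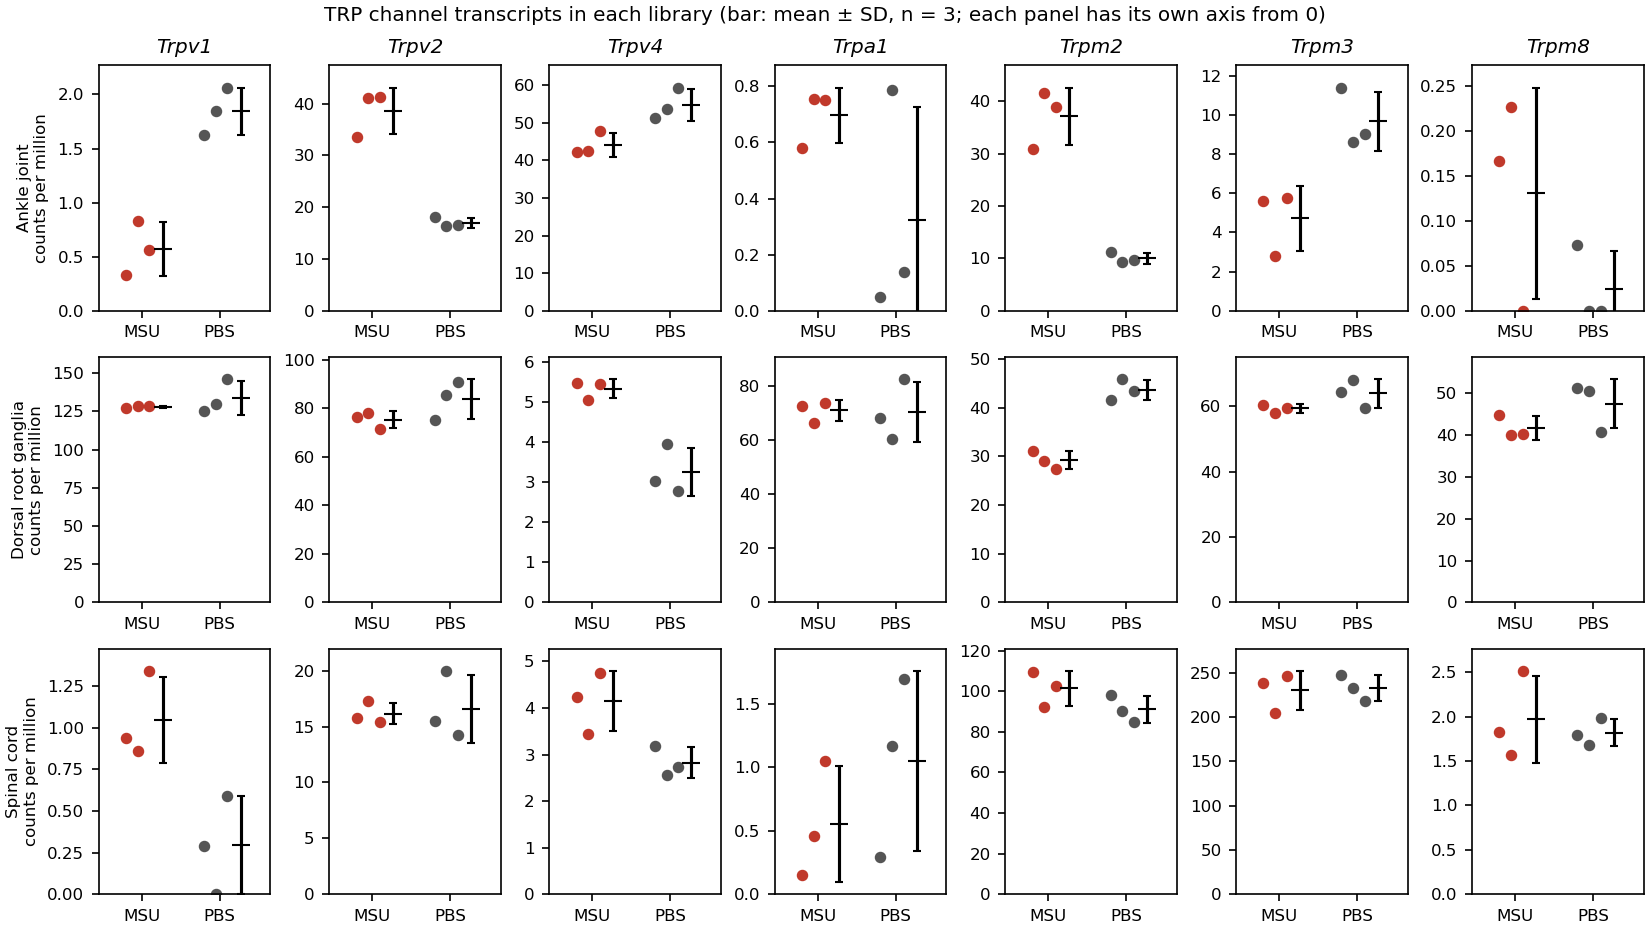
CPM (vertical axes, each from 0) of the 7 channels in the 3 MSU and 3 PBS libraries of each tissue, 1 point per library, with bars for mean and SD. In the ankle row Trpm2 and Trpv2 sit higher in all 3 MSU libraries (31.0 to 41.5 and 33.5 to 41.3 CPM), and in the DRG row Trpm2 sits lower (27.4 to 31.1 CPM).

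Cell type markers moved with the ankle response. For scale, 21.6% of all ankle genes were called higher and 21.7% lower. Of 12 neutrophil markers 10 rose and none fell, and their summed level was 3918 to 4984 CPM in MSU ankles, against 473 to 1534 CPM in PBS ankles. Macrophage markers rose in 4 of 10 cases, with sums of 1743 to 2381 CPM in MSU ankles, against 1806 to 2149 CPM in PBS ankles. Among the PBS ankles, the neutrophil sum was 473 CPM in library 1, 1534 CPM in library 2 and 616 CPM in library 3. All 8 keratinocyte markers fell, to sums of 4610 to 6563 CPM in MSU ankles, against 11888 to 12751 CPM in PBS ankles. Schwann cell markers fell in 5 of 6 cases, to sums of 307 to 399 CPM in MSU ankles, against 522 to 609 CPM in PBS ankles, and 4 of 5 adipocyte markers fell. Synovial fibroblast markers rose in 3 of 6 cases and fell in 1, with sums of 13205 to 19417 CPM in MSU ankles, against 9152 to 11656 CPM in PBS ankles. Of 12 sensory neuron markers 6 could be tested in the ankle: Calca rose (log2 fold change 3.22), Prph fell (-1.31) and 4 were not called. Mrgprd and Drgx had 0 reads in every ankle library. The part of these cell types in the channel changes was not tested, and in bulk RNA fewer cells of a type and less RNA per cell cannot be told apart.

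In the ganglia the levels of the nociceptor channels Trpv1 and Trpa1 were close in both groups, Trpv4 rose and Trpm2 fell. All 7 channels were tested and 2 were called, 1 higher and 1 lower, against 35.4% of all DRG genes called, 16.7% higher and 18.7% lower. Trpv1 was at 127, 129 and 128 CPM in MSU ganglia, against 126, 130 and 146 CPM in PBS ganglia. MSU values lay within the PBS range, with a log2 fold change of -0.06 (SE 0.08, adjusted p = 0.562). Trpa1 was at 72.7, 66.3 and 73.6 CPM in MSU ganglia, against 68.1, 60.4 and 82.4 CPM in PBS ganglia. Here too the groups overlapped, with a log2 fold change of 0.01 (SE 0.11, adjusted p = 0.940).

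Trpm2 was at 31.1, 29.1 and 27.4 CPM in MSU ganglia, against 41.6, 45.9 and 43.4 CPM in PBS ganglia. The groups stood apart, as did those of 50.3% of all DRG genes, and the log2 fold change was -0.58 (SE 0.08, adjusted p = 0.000635). Trpv4, the lowest of the 7 per length in ganglia, was at 5.49, 5.05 and 5.45 CPM in MSU ganglia, against 3.04, 3.94 and 2.78 CPM in PBS ganglia. No MSU value reached down to the PBS values, and the log2 fold change was 0.71 (SE 0.19, adjusted p = 0.0146). The Trpv4 call was lost without PBS library 1 (0.66, adjusted p = 0.0627) and without MSU library 3 (0.69, adjusted p = 0.0590).

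The cold receptor Trpm8 was at 44.8, 40.0 and 40.1 CPM in MSU ganglia, against 51.2, 50.5 and 40.8 CPM in PBS ganglia. PBS library 3 lay among the MSU values, and the log2 fold change was -0.19 (SE 0.10, adjusted p = 0.163); without that library it was -0.29 and was called (adjusted p = 0.0299). Trpv2 averaged 75.4 ± 3.43 CPM in MSU ganglia and 83.9 ± 8.15 CPM in PBS ganglia (adjusted p = 0.185). Trpm3 averaged 59.4 ± 1.32 CPM in MSU ganglia and 64.0 ± 4.34 CPM in PBS ganglia (adjusted p = 0.287). Both pairs of groups overlapped.

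Other sensory neuron transcripts were lower in the same MSU ganglia. The marker counts here stand against 16.7% of all DRG genes called higher and 18.7% called lower. Of 12 sensory neuron markers 8 fell and none rose, and their sum was 7594 to 8271 CPM in MSU ganglia, against 9438 to 11748 CPM in PBS ganglia. Among them Scn10a, the nociceptor sodium channel Nav1.8, changed by -0.54 on the log2 scale (adjusted p = 0.00692). Skeletal muscle markers summed to 13969, 1517 and 1478 CPM in MSU ganglia, against 257, 151 and 22.4 CPM in PBS ganglia. Without MSU library 1, which had the most muscle transcripts, the Trpv4 change was 0.69 (adjusted p = 0.0198) and the Trpm2 change -0.63 (adjusted p = 9.15e-05). The remaining MSU libraries, at 1517 and 1478 CPM, still lay above every PBS library in muscle markers. Muscle content and MSU therefore cannot be told apart in that fit either. Neutrophil markers rose in 5 of 12 cases and macrophage markers in 6 of 10. Astrocyte markers rose in 3 of 5 cases, with sums of 85.5 to 105 CPM in MSU ganglia, against 47.3 to 47.8 CPM in PBS ganglia. This rise was not particular to the ganglia. In the ankle 3 of 4 tested astrocyte markers rose, with sums of 87.9 to 88.1 CPM after MSU, against 44.3 to 48.3 CPM after PBS. Schwann cell markers rose in 3 of 6 cases in the ganglia. Endothelial markers fell in 3 of 5 cases, to sums of 74.3 to 90.0 CPM in MSU ganglia, against 92.3 to 102 CPM in PBS ganglia. The part of these markers in the channel values was not tested.

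**Figure D3:**
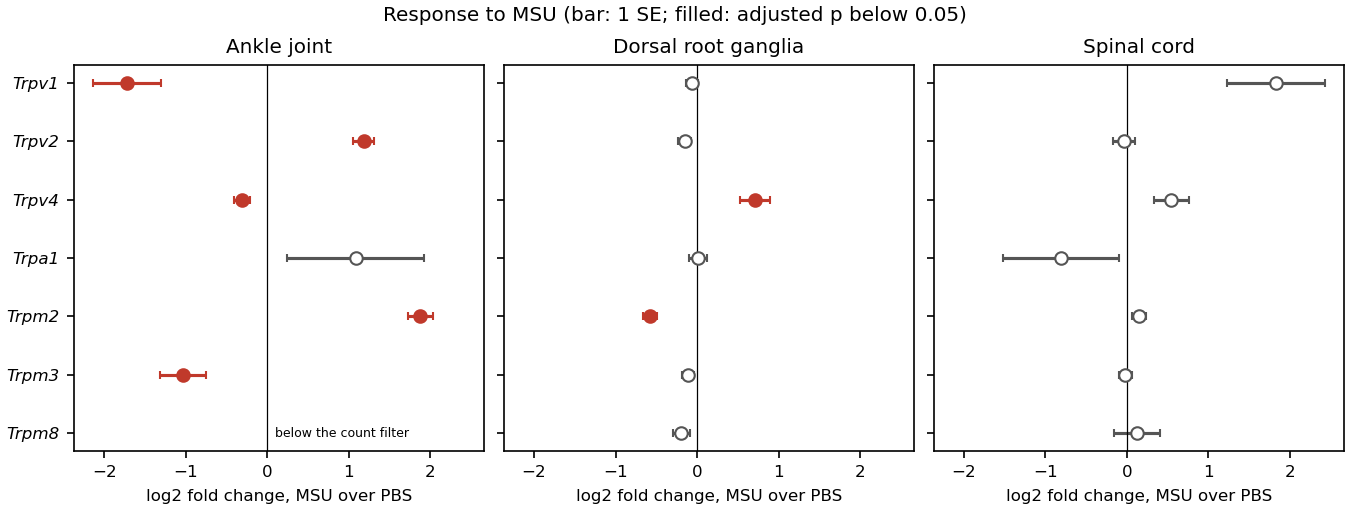
Log2 fold change, MSU over PBS (horizontal axes), of each channel in each tissue, with bars of 1 SE; filled points had an adjusted p below 0.05. Trpm2 lies at 1.88 in the ankle and -0.58 in the ganglia, while Trpv4 lies at -0.31 and 0.71.

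In the spinal cord no channel passed the threshold, while 9.66% of all cord genes were called, 5.60% higher and 4.07% lower. With edgeR 2 of the 7 channels, Trpv1 and Trpv4, had an unadjusted p below 0.05, as did 23.1% of all cord genes, and DESeq2 and limma-voom called 0. Trpm3, the most abundant of the 7 in cord per length, averaged 230.2 ± 22.1 CPM in MSU cords and 232.9 ± 14.4 CPM in PBS cords (log2 fold change -0.02, SE 0.09). Trpm2 averaged 101.4 ± 8.66 CPM in MSU cords and 91.0 ± 6.82 CPM in PBS cords (log2 fold change 0.15, SE 0.09, adjusted p = 0.319). Trpv2 averaged 16.2 ± 0.960 CPM in MSU cords and 16.6 ± 3.03 CPM in PBS cords, and Trpm8 averaged 1.97 ± 0.489 CPM in MSU cords and 1.82 ± 0.155 CPM in PBS cords. Groups overlapped for all 4 of these channels, and for Trpa1, with 3, 9 and 25 reads in MSU cords and 6, 16 and 23 in PBS cords. Trpv4 was at 4.25, 3.45 and 4.74 CPM in MSU cords, against 3.19, 2.56 and 2.73 CPM in PBS cords, without overlap (log2 fold change 0.55, SE 0.22, adjusted p = 0.148).

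Trpv1 was scarce in the cord, with 19, 17 and 32 reads in MSU libraries, against 6, 0 and 8 in PBS libraries. In CPM these were 0.938, 0.863 and 1.34 in MSU cords, against 0.290, 0 and 0.589 in PBS cords. Every MSU value was higher, where 27.7% of all cord genes had groups that did not overlap. The log2 fold change of 1.83 (SE 0.60) missed the threshold (adjusted p = 0.0801). The 18-library fit called it (1.86, adjusted p = 0.0134), as did the test with no count filter (1.84, adjusted p = 0.00898) and the test without PBS library 3 (2.61, adjusted p = 0.0475). Of 15 alternatives, 12 left it uncalled, with an adjusted p of up to 0.213. Without PBS library 2, which had 0 reads, the change was 1.32 (adjusted p = 0.180).

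Of the immune markers, 4 of 12 for neutrophils and 4 of 10 for macrophages rose in MSU cords, against 5.60% of all cord genes. Their part in the channel values was not tested. The sensory neuron transcripts Scn10a and Avil were uneven among the cord libraries. The sum of all 12 sensory neuron markers was not, at 1356 to 1451 CPM in MSU cords and 1304 to 1412 CPM in PBS cords. Scn10a, a sodium channel gene of nociceptors, had 5, 7 and 201 reads in MSU cords, against 1, 0 and 59 in PBS cords, so library 3 of each group stood apart. In those libraries there were 6.28 Scn10a reads per Trpv1 read in the MSU cord and 7.38 in the PBS cord, against 7.25 to 11.9 in all ganglia libraries. MSU cords 1 and 2 had 0.263 and 0.412 Scn10a reads per Trpv1 read, and PBS cord 1 had 0.167. All these cord ratios rest on few Trpv1 reads, and the part of sensory neuron RNA in the Trpv1 values was not tested. Without library 3 of both groups the Trpv1 log2 fold change was 2.36 (adjusted p = 0.0888) and that of Trpv4 was 0.41 (adjusted p = 0.411).

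**Figure D4:**
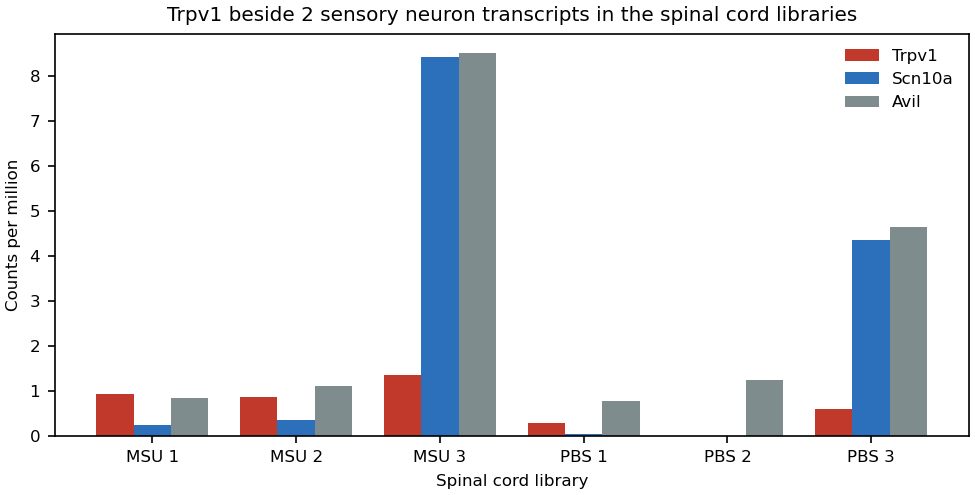
CPM (vertical axis, from 0) of Trpv1 and of the sensory neuron transcripts Scn10a and Avil in each cord library (horizontal axis). Trpv1 is higher in all 3 MSU libraries (0.863 to 1.34 CPM), while Scn10a and Avil stand out only in library 3 of each group.

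Differences of response between tissues were tested directly as interactions over all 18 libraries. The ankle response differed from the DRG response for 5 of 7 channels, against 32.4% of all genes, and from the cord response for the same number, against 26.7%. Trpm2 had the largest difference between ankle and ganglia relative to its error, 2.43 on the log2 scale (SE 0.15, adjusted p = 7.77e-09). Trpv4 differed by -1.04 (SE 0.19, adjusted p = 0.000409) in the same contrast. The DRG response differed from the cord response for 2 of 7 channels, Trpv1 and Trpm2, against 13.6% of all genes. These contrasts share libraries: the ankle response enters both contrasts with the ankle, and the DRG and cord responses enter 2 each. Some numbers in the sample descriptions recur across tissues, so tissues may come from the same mice, which the labels do not state; the interaction and PBS tissue fits treat libraries as independent.

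Among 21 other TRP channel genes, Mcoln2, which encodes the endolysosomal channel TRPML2, rose in the ankle and ganglia. It was at 167.8, 141.4 and 157.7 CPM in MSU ankles, against 10.4, 7.38 and 9.42 CPM in PBS ankles. All MSU values were far above the PBS values, with a fold of 17.1 (log2 fold change 4.10, SE 0.15, adjusted p = 1.14e-06). In the ganglia it averaged 2.12 ± 0.428 CPM after MSU and 0.662 ± 0.0101 CPM after PBS (log2 fold change 1.68, adjusted p = 0.00133). In the cord it had 39 reads over the MSU libraries and 10 over the PBS libraries (1.53, adjusted p = 0.0751). The 18-library fit did call it there. In that fit the DRG response was 1.61 and the cord response 1.55, and the edgeR interaction test did not call their difference (0.06, SE 0.61, adjusted p = 0.997).

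In the ankle 15 of these genes were tested, 2 rose and 6 fell, against 21.6% and 21.7% of all genes, with a median log2 fold change of -0.30 against -0.02 over all genes. Under upper quartile scaling 1 rose and 8 fell. Those that fell included Trpm4, a calcium-activated cation channel (-0.96, adjusted p = 0.000376), and the calcium channel Trpv6 (-1.19, adjusted p = 0.00374). In the ganglia 15 were tested, 2 rose and 3 fell, against 16.7% and 18.7% of all genes, with a median of -0.01 against 0.02 over all genes. There Pkd2, the polycystin-2 gene, rose (0.55, adjusted p = 0.0138), while Pkd2l2 (-0.36, adjusted p = 0.00932) and Trpc1 (-0.31, adjusted p = 0.0119) fell. In the cord 0 of 17 were called by edgeR in the cord fit, against 9.66% of all genes, and 4 had an unadjusted p below 0.05. DESeq2 called 1 (Pkd2l1), limma-voom called 0 and the 18-library fit called 1 (Mcoln2, higher).

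**Figure D5:**
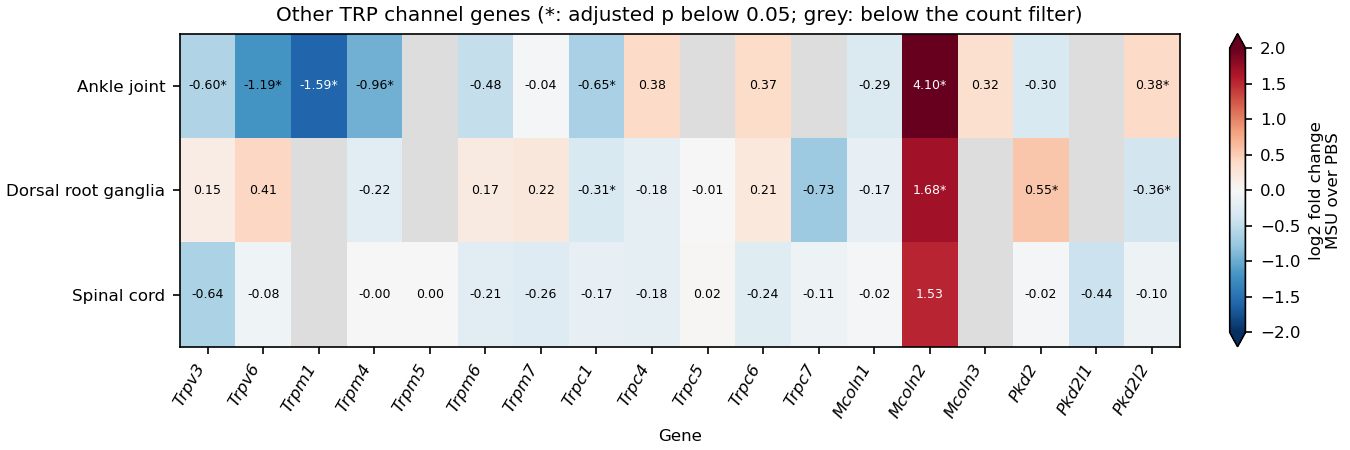
Log2 fold change, MSU over PBS, of other TRP channel genes (columns) by tissue (rows); colour runs between -2 and 2, asterisks mark an adjusted p below 0.05 and grey cells lay below the count filter. Mcoln2 stands at 4.10 in the ankle and 1.68 in the ganglia, beyond or near the end of the colour scale.

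Genes of signals that sensitise TRPV1 and TRPA1, most of them receptors, changed in the ankle, where 9 of 16 rose and 2 fell, against 21.6% of all genes called higher and 21.7% lower. Their median log2 fold change was 0.84 against -0.02 over all genes. Il1r1, the interleukin-1 receptor, rose by 1.82 (adjusted p = 2.70e-05), the bradykinin receptor Bdkrb1 by 3.94 (adjusted p = 9.09e-05) and the prostacyclin receptor Ptgir by 1.08 (adjusted p = 0.000241). In the ganglia 3 of 15 rose and 4 fell, where 16.7% of all genes rose and 18.7% fell, with a median of -0.05 against 0.02. Il1r1 rose there by 1.68 (adjusted p = 3.48e-06) and the tumour necrosis factor receptor Tnfrsf1a by 1.26 (adjusted p = 5.07e-05). In the cord 3 of 12 rose and 2 fell, against 5.60% and 4.07% of all genes, with a median of 0.49 against -0.01. Il1r1 rose by 1.68 (adjusted p = 2.79e-05) and Tnfrsf1a by 1.66 (adjusted p = 0.000295), and the histamine receptor Hrh1 had a change of -0.75 (adjusted p = 0.0157), which the 18-library fit did not call.

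Of 12 kinase, phospholipase and anchor genes that act on TRP channels, 8 fell in the ganglia and none rose, where 18.7% of all DRG genes were called lower and 16.7% higher. Their median log2 fold change was -0.36 against 0.02 over all genes, and the anchor Akap5 was at -0.16 (adjusted p = 0.697). Prkce, the protein kinase C epsilon gene, averaged 209.7 ± 33.5 CPM in MSU ganglia and 355.3 ± 33.7 CPM in PBS ganglia (-0.76, adjusted p = 0.00102). Cdk5r1, the activator of the neuronal kinase Cdk5, changed by -0.81 (adjusted p = 0.000675), the protein kinase A subunit Prkaca by -0.50 (adjusted p = 0.00244) and the phospholipase Plcb3 by -0.51 (adjusted p = 0.00278). These fell beside the sensory neuron markers given above, and the part of those markers was not tested. In the ankle 2 of 12 rose and 5 fell, against 21.6% and 21.7% of all genes, with a median of -0.12. Prkce rose there, to a mean of 38.1 CPM in MSU ankles, against 17.5 CPM in PBS ankles (adjusted p = 7.01e-05), and Plcg1 fell (-0.78, adjusted p = 0.000492). In the cord 2 of 12 rose and 0 fell, against 5.60% and 4.07% of all genes, with a median of 0.13, and they were Prkcd (0.90, adjusted p = 1.56e-05) and Prkaca (0.26, adjusted p = 0.0377), which was called neither under upper quartile scaling nor in the 18-library fit.

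Of the binding and trafficking partners of the channels, in the ankle 0 of 9 rose and 3 fell, against 21.6% and 21.7% of all genes, with a median of -0.12, among them Pacsin3, a known TRPV4 partner (-1.05, adjusted p = 0.000243). In the ganglia 1 of 10 rose and 3 fell, against 16.7% and 18.7% of all genes, with a median of 0.01. Pirt, a membrane protein that binds TRPV1, averaged 799.2 ± 34.5 CPM in MSU ganglia and 1052 ± 76.8 CPM in PBS ganglia (-0.40, adjusted p = 0.00558, not called in the 18-library fit), and the GABA receptor-associated protein Gabarap rose (0.46, adjusted p = 0.00196). In the cord 0 of 10 were called by edgeR, against 9.66% of all genes, 3 had an unadjusted p below 0.05, and DESeq2 and limma-voom called 0.

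Genes that make or remove channel agonists changed in both directions. In the ankle 5 of 14 rose and 5 fell, against 21.6% and 21.7% of all genes, with a median of -0.06. Nos2, the inducible nitric oxide synthase, averaged 277.6 ± 12.8 CPM in MSU ankles and 1.85 ± 0.207 CPM in PBS ankles (7.24, adjusted p = 1.15e-08). Cd38, an enzyme that produces ADP-ribose, the TRPM2 agonist, rose by 2.88 in the ankle (adjusted p = 7.33e-05) and Cybb, the phagocyte oxidase subunit, by 1.39 (adjusted p = 4.22e-05), while Faah, which degrades the TRPV1 ligand anandamide, fell (-1.37, adjusted p = 0.000211). In the ganglia 2 of 12 rose and 4 fell, against 16.7% and 18.7% of all genes, with a median of -0.07. Cd38 rose there too (1.78, adjusted p = 1.03e-05), as did Napepld, an anandamide-producing enzyme (0.46, adjusted p = 0.00568, not called in the 18-library fit), while Parp1, whose product is a source of ADP-ribose, fell (-0.66, adjusted p = 0.000691), as did Faah (-0.46, adjusted p = 0.00407). In the cord 1 of 13 rose, the lipoxygenase Alox5 (1.14, adjusted p = 0.0289), and 1 fell, the prostaglandin D synthase Hpgds (-0.75, adjusted p = 0.0384), against 5.60% and 4.07% of all genes, with a median of -0.02. Alox5 was not called by limma-voom, and Hpgds was not called in the 18-library fit.

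Genes with the most similar profile to each channel were found among 16153 genes as those with the smallest root mean square difference of centred log2 CPM over the 18 libraries, which share tissue and treatment. Trpm8 was closest to the potassium channel subunit Kcnv1 (0.24), then to Rgs4 (0.32) and to the sensory neuron transcription factor Pou4f1 (0.34). Trpv4 was closest to Piezo1, a mechanically gated channel (0.23), followed by Ttc7 (0.25) and Gstp3 (0.29). Trpv2 was closest to Panx1, a pannexin channel (0.22), with Nup93 (0.24) and Ppp1r2 (0.28) after it. Trpm3 was closest to Shd (0.22), Arnt2 (0.24) and Efr3b (0.29). Trpm2 was closest to Cfap69 (0.32), the neurotrophin receptor Ntrk2 (0.33) and BC049352 (0.36). The nociceptor channels had looser matches: Trpv1 to Tlx2 (0.51), Trappc3l (0.61) and Mrgprx3-ps (0.61), and Trpa1 to Tmem72 (0.46), Mrgprx3-ps (0.46) and Fam19a4 (0.56).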

How the data were processed

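Raw read counts per Ensembl gene were deposited by the authors as 1 table per tissue, not normalized. Build mm39 and the tools HISAT2, DESeq2 and HTSeq 0.11.3 are named, per the submitters' processing notes, with no role stated. The strand setting and annotation release are not given in the sources used here. Samples were grouped by their titles, and the columns were matched by tissue and description. Symbols were matched for 52083 of 55359 genes, and exon lengths came from GENCODE M21 (GRCm38).

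Genes were kept with filterByExpr (minimum count 10, minimum total 15) and scaled by TMM. edgeR 4.0.16 (R 4.3.3) gave quasi-likelihood F tests, with Benjamini-Hochberg adjustment over all genes tested and a threshold of 0.05. Every adjusted p is from that test unless another tool is named. The SE is the absolute log2 fold change over the square root of F. The code was tested on simulated data. The 18 libraries, fitted in 6 groups, gave the interactions and RPKM. Profiles were compared on log2(CPM + 0.5). Alternatives were RLE and upper quartile scaling, filters, DESeq2 1.42.0, limma-voom 3.58.1, a replicate block, single libraries left out and 1 fit of all libraries.

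Libraries within a group differed by a chi-square of at least 5.69 per degree of freedom, so none was a copy. Library totals limit channels of few reads: 3 counts corresponded to 0.0727 to 0.282 CPM. The members and gene lists were chosen with earlier results of these data known. Genes named were the 7 channels, up to 4 called genes of each list and tissue with the smallest p-values, marker genes beside a result, and 3 nearest profiles per channel; some genes under this rule are not reported here.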

Additional observations from a re-analysis of the deposited data

Results flagged for a closer look

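The response to MSU differed between tissues for 12 pairs of channel and tissue contrast, each by an edgeR interaction test over 20757 genes. The values are differences of log2 fold changes. Between the ankle and the ganglia, Trpm2 differed by 2.43, Trpv2 by 1.31, Trpm3 by -0.94, Trpv4 by -1.04 and Trpv1 by -1.71. Adjusted p-values of that contrast ran between 7.77e-09 for Trpm2 and 0.00433 for Trpm3. Between the ankle and the cord, Trpm2 differed by 1.59, Trpv2 by 1.08, Trpv4 by -0.98, Trpm3 by -1.14 and Trpv1 by -3.71, with adjusted p-values between 6.02e-07 for Trpm2 and 0.00110 for Trpm3. Between the ganglia and the cord, Trpm2 differed by -0.84 (adjusted p = 0.00110) and Trpv1 by -2.01 (adjusted p = 0.00818). The Trpv1 differences that involve the cord rest on 68 reads over the MSU cords and 14 over the PBS cords.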

How the results depend on the processing

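The 20 channel values of the MSU tests were recomputed 282 times, of which 255 kept direction and side of the threshold, 8 lost and 5 gained a call and 14 changed sign. The 21 response differences gave 349 of 357 that kept both, and the 21 PBS contrasts 207 of 210. All sign changes were in values that were not called. Channels called in the ganglia ranged between 1 and 3 when single libraries were left out. Cord genes called ranged between 1054 and 1870 and cord channels called between 0 and 1 when single libraries were left out. Cord channels called numbered 1 without a count filter (Trpv1) and 2 in the 18-library fit (Trpv1 and Trpv4); the cause was not tested. Sign changes with single libraries left out spanned log2 values of -0.0896 to 0.140 for DRG Trpa1, -0.104 to 0.0050 for DRG Trpv1, -0.0680 to 0.0676 for cord Trpm3, -0.109 to 0.120 for cord Trpv2, -0.0952 to 0.270 for cord Trpm8, -0.0687 to 0.203 for Trpv4 in ganglia minus cord and -0.186 to 0.0723 for Trpv2 in PBS ankle against PBS cord. The 18-library fit gave -0.0749 for DRG Trpa1 and 0.0034 for cord Trpm3, and cord Trpm8 was -0.0331 without library 3 of both groups. Response differences of Trpa1 or Trpm8 with the ankle passed the threshold only without ankle PBS library 1 or 2 or MSU library 3. Upper quartile scaling moved the ankle median of all genes by -0.10 and the 18-library fit by -0.12.

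Library numbers are the replicate numbers of the sample titles, which often differ from the numbers in the sample descriptions. MSU and PBS libraries came from different mice, so a shared number does not pair animals there. Deviations of same-numbered MSU and PBS libraries had correlations between -0.140 and 0.268. Number 1 matched its own number best in each tissue (0.268 in the ankle, 0.122 in the ganglia, 0.219 in the cord). So did number 2 in the ganglia (0.0913), and the other numbers did not. Neither these correlations nor a block on title numbers examines whether tissues came from the same mice. With replicate number as a block, genes called numbered 7468 in the ankle, 5138 in the ganglia and 1669 in the cord, and channels called stayed at 5, 2 and 0. With that block, Trpa1 in PBS ankle against PBS cord had -1.81 (adjusted p = 0.0310).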
